A study of Homo sapiens with 16 samples.

Results

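The genes described here encode 10 receptors for lipids and foreign chemicals. They are the 3 PPARs, which sense fatty acids (PPARA, PPARD and PPARG), the oxysterol receptors LXR-beta and LXR-alpha (NR1H2 and NR1H3), the partner receptors RXRA and RXRB, the xenobiotic receptors PXR and CAR (NR1I2 and NR1I3), and the aryl hydrocarbon receptor AHR. They were taken by gene name from a table of 58735 human genes, and all 10 passed the filter on low counts together with 18121 genes in all. The RNA came from differentiated HepaRG, a human hepatic progenitor line that yields hepatocyte-like and cholangiocyte-like cells. Cells received palmitic acid (0.25 mM) and oleic acid (0.5 mM) together with 30 nM formoterol (an agonist of the beta2-adrenergic receptor, which raises cAMP), the same fatty acids alone, formoterol alone, or 1% BSA as vehicle (control). Treatment lasted 3 days and each group had 4 libraries, 16 in all. In every group the medium held 2% DMSO and triamcinolone acetonide, a synthetic glucocorticoid, throughout, so all 4 groups share those 2 agents. Whether BSA was also in the treated media is not stated in the labels.

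PPARs, LXRs, PXR and CAR bind DNA mainly as pairs with an RXR. PPARs, LXRs and PXR switch on genes when fatty acids, oxysterols or drugs bind to them. In liver PPAR-alpha drives fatty acid oxidation and ketone production, LXRs drive cholesterol export and lipid synthesis, and PXR and CAR drive the cytochrome P450 enzymes, conjugating enzymes and transporters that clear drugs. AHR belongs to another protein family: it waits in the cytoplasm with chaperones, pairs with ARNT once an aromatic ligand binds, and induces CYP1 enzymes and its own repressor AHRR.

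Total gene counts were 33071030 to 41682806 with fatty acids plus formoterol, 32471299 to 39164756 with fatty acids, 32781888 to 65673126 with formoterol and 33293708 to 34936732 in control. The labels call the libraries independent replicates without saying that they came from separate cultures, so p-values measure the spread between these samples, which may be technical. Replicate 2 of fatty acids plus formoterol stood apart: its mean log2 CPM over 12 hepatocyte markers was 0.89 below the control mean, whereas the other 3 libraries of its group were 0.46 to 0.55 above it. CPM here are counts scaled to a common library size with TMM factors, and a change is a log2 fold change ± SE from edgeR's quasi-likelihood fit over the 16 libraries. A gene was called changed at a Benjamini-Hochberg adjusted p under 0.05 over all tested genes. Results that turn on the library that stood apart are also given without it, a fit that tested 18517 genes.

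AHR and PPARD were the receptor genes that changed with fatty acids against control, AHR upward and PPARD downward. The 250 bases before the RefSeq start of each gene (GRCh38.p14) are shown because these genes moved oppositely in the same comparison; the RefSeq start of AHR lies inside the longer gene of the count table. Capitals mark the core of the cAMP response element (TGACG, written CGTCA where it lies on the minus strand) and the core of the xenobiotic response element, which AHR and ARNT bind (GCGTG), both searched on both strands.
AHR promoter, chr7:17298402-17298651, plus strand: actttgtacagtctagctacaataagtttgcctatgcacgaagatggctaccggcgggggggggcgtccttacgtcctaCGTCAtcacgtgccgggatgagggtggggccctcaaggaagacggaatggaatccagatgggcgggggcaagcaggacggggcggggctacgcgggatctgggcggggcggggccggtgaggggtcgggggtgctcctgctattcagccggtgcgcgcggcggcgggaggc
PPARD promoter, chr6:35342308-35342557, plus strand: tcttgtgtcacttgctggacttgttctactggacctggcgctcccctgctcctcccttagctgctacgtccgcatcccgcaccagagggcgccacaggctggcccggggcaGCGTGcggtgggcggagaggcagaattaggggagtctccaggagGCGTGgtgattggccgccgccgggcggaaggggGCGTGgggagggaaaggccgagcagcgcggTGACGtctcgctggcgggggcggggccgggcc
The AHR window held 1 cAMP core, on the minus strand at bases −171 to −167 from the start, and no xenobiotic core. The PPARD window held 1 cAMP core at −32 to −28 and 3 xenobiotic cores. Of 35114 promoter windows of the same length, 21.2% held the cAMP core and 32.2% the xenobiotic core, so both are common. Some receptor genes have several windows. Of the 22 windows listed for the 10 genes, 3 held the cAMP core (those of AHR, NR1H2 and PPARD). The xenobiotic core was in 7 of the 22, from 6 genes. The full cAMP response element TGACGTCA, which contains that core, held by 1.65% of windows, was found for 0 of the 10 genes. The nuclear receptor core AGGTCA is in 12.1% of all windows and in 4 of the 22, from NR1H3 and PPARG, including overlapping windows of PPARG. Exact direct repeats of it spaced by 1 base, the PPAR type, or by 4 bases, the LXR type, were found for 0 of the 10 genes, and in 0.0171% and 0.0142% of all windows. A match of letters is a description and not a binding site.

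Levels of different genes were compared as TPM, which divides by the deposited gene length. In control cells RXRA had the highest level at 61.7 ± 1.68 TPM, followed by AHR at 59.0 ± 4.19 and NR1H2 at 52.0 ± 2.19 TPM (SD, n = 4 each). RXRB stood at 47.9 ± 4.88 TPM, PPARD at 43.0 ± 2.9 TPM and PPARA at 29.7 ± 2.59 TPM (SD, n = 4 each). The control ranges of RXRA and AHR overlapped, as did those of NR1H2 with RXRB and of RXRB with PPARD, so the order within those pairs is not resolved. A lower tier held NR1H3 at 11.8 ± 0.545 TPM and PPARG at 11.0 ± 0.549 TPM, whose control ranges overlapped. The xenobiotic receptors were lowest, NR1I2 at 7.17 ± 1.72 TPM and NR1I3 at 3.74 ± 1.05 TPM (SD, n = 4 each). The third RXR gene, RXRG, had 0 counts in all 16 libraries, which allows at most 0.0924 CPM in a library. Across the 16 libraries the highest TPM was 3.98 times the lowest for NR1I2 and 4 times for NR1I3, but only 1.42 to 1.86 times for the other 8 genes. The lowest values of NR1I2 and NR1I3, 3.27 and 1.38 TPM, were both in replicate 2 of fatty acids plus formoterol. The next lowest were 5.88 TPM for NR1I2 and 2.2 TPM for NR1I3, so the wide ranges rest largely on that library.

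**Figure D1:**
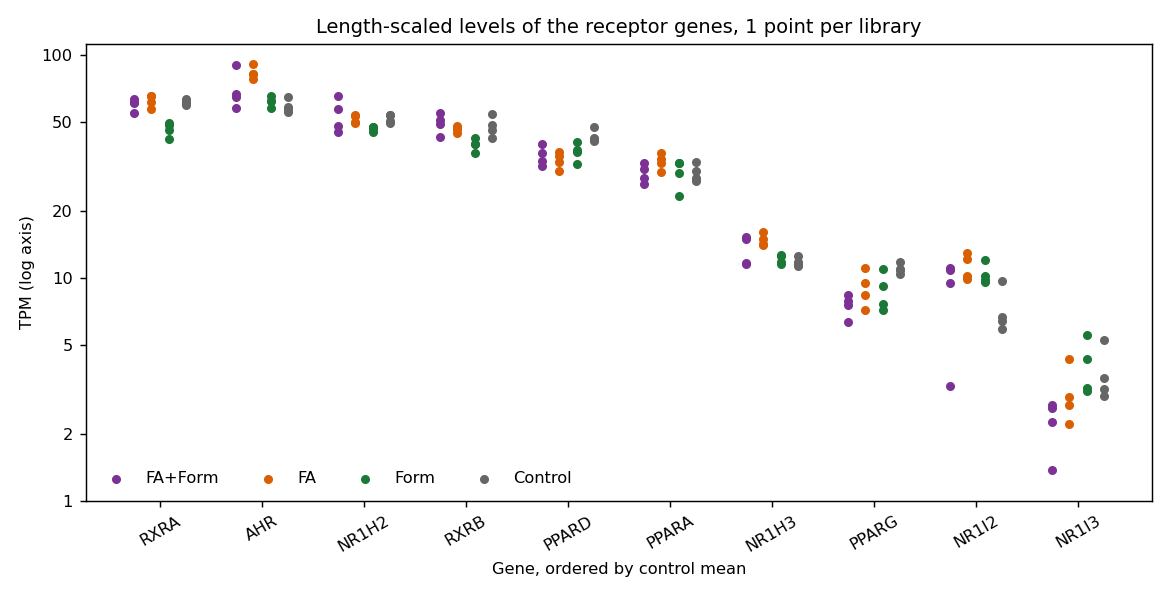
TPM of the 10 receptor genes (log axis), 1 point per library, in the order of their control means. FA is fatty acids and Form is formoterol. RXRA leads in control at 61.7 TPM and NR1I3 is last at 3.74 TPM, and NR1I2 and NR1I3 spread most widely.

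With fatty acids against control, 2 of the 10 receptor genes changed, 1 upward and 1 downward, where 16.5% of all tested genes were called. AHR (ENSG00000106546, chr7:16916359-17346152, plus strand), the receptor for dioxins and tryptophan metabolites, had 175, 190, 173 and 171 CPM with fatty acids, against 125, 136, 126 and 121 CPM in control. Every fatty acid library lay above every control library. The log2 change was 0.48 ± 0.07 or 1.4-fold (edgeR adjusted p = 8.62e-05). PPARD (ENSG00000112033, chr6:35342558-35428191, plus strand), the PPAR found in most tissues, had 41.4, 38.2, 42.5 and 36.5 CPM with fatty acids, against 51.2, 47.4, 49.2 and 57.0 CPM in control. All 4 fatty acid libraries lay below the lowest control library, and the change was −0.37 ± 0.08 (edgeR adjusted p = 0.00316). Both calls held whichever of the 16 libraries was left out.

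LXR-alpha and PXR also separated without overlap but were not called, which made 4 of 10 receptor genes without overlap beside 21.0% of all tested genes. NR1H3 (ENSG00000025434, chr11:47248300-47269032, plus strand), the LXR enriched in liver, had 17.9, 16.7, 16.5 and 19.6 CPM with fatty acids, against 13.8, 14.7, 13.9 and 14.5 CPM in control (0.31 ± 0.12, edgeR adjusted p = 0.0965). NR1I2 (ENSG00000144852, chr3:119780484-119818485, plus strand), the broad drug sensor PXR, had 17.2, 13.7, 18.2 and 14.9 CPM with fatty acids, against 9.39, 13.5, 8.43 and 9.72 CPM in control (0.64 ± 0.27, edgeR adjusted p = 0.109). The gap for NR1I2 was narrow: the lowest fatty acid library had 13.7 CPM and the highest control library 13.5 CPM. Without replicate 2 of fatty acids plus formoterol the estimates were the same and the pooled spread was smaller, and both genes were called, NR1H3 at 0.31 ± 0.10 (edgeR adjusted p = 0.0364) and NR1I2 at 0.64 ± 0.13 (edgeR adjusted p = 0.000743). That made 4 receptor genes, beside 19.4% of all genes called in that fit. With all 16 libraries and no filter on low counts NR1I2 was called (0.64, edgeR adjusted p = 1.91e-05). That call and the no-filter calls below use the same libraries and nearly the same estimates, so they are not separate evidence. NR1H3 shares 607 bases with ACP2 on the opposite strand, a gene with 3.32 times its counts, and the strandedness of the counts is not known. ACP2 moved the other way (−0.34 ± 0.07, edgeR adjusted p = 0.00146).

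**Figure D2:**
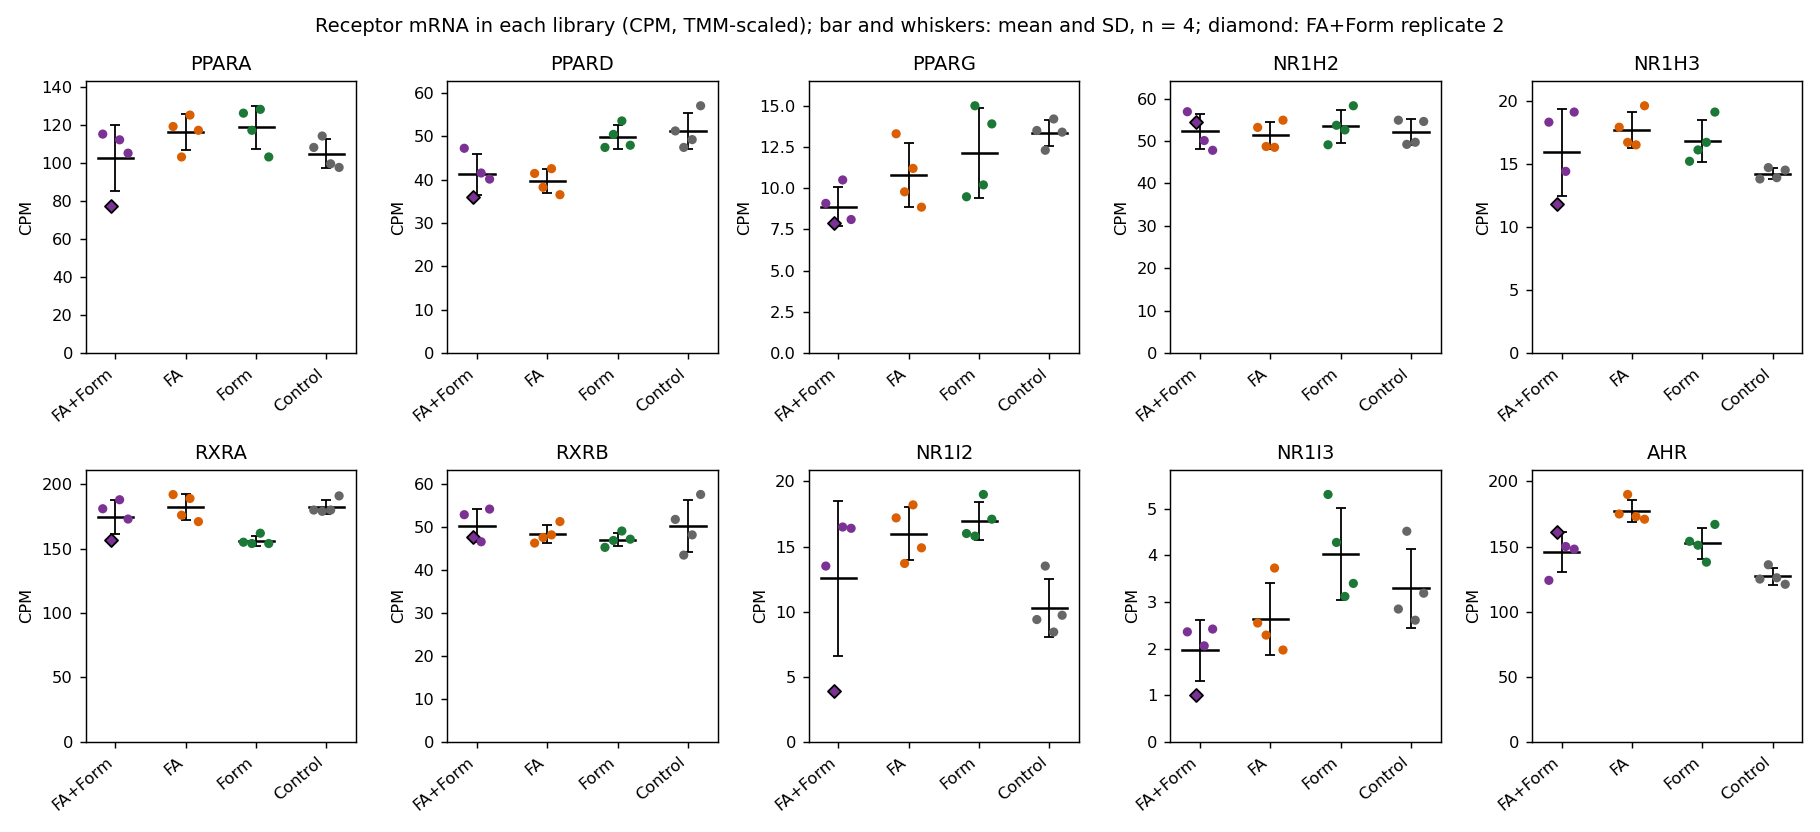
TMM-scaled CPM of each receptor gene in each library, with the mean and SD of 4 libraries per group; the diamond is replicate 2 of fatty acids plus formoterol. AHR is highest with fatty acids (171 to 190 CPM) and RXRA lowest with formoterol (154 to 162 CPM), and the diamond is the lowest point for PPARA, PPARD, PPARG, NR1H3, NR1I2 and NR1I3 in their panels.

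Formoterol against control changed 2 of the 10 receptor genes, where 10.3% of all tested genes were called. RXRA (ENSG00000186350, chr9:134317098-134440585, plus strand), the main partner receptor in liver, had 155, 154, 162 and 154 CPM with formoterol, against 180, 179, 180 and 191 CPM in control. All 4 formoterol libraries lay below all 4 control libraries, and the change was −0.22 ± 0.06, the smallest of the called receptor changes (edgeR adjusted p = 0.0204). AHR had 154, 151, 138 and 167 CPM with formoterol, again above every control library (0.27 ± 0.07, edgeR adjusted p = 0.0244). NR1I2 had 16.0, 15.8, 19.0 and 17.1 CPM with formoterol and so lay above all control libraries as well (0.72 ± 0.26, edgeR adjusted p = 0.0873). Leaving out replicate 2 of fatty acids plus formoterol brought NR1I2 past the threshold (0.72 ± 0.13, edgeR adjusted p = 0.000289), with 3 receptor genes called beside 14.0% of all genes, and so did applying no filter on low counts (0.74, edgeR adjusted p = 4.95e-07). NR1H3 did not overlap either, at 15.2, 16.1, 16.7 and 19.1 CPM with formoterol, but was not called (0.23 ± 0.12, edgeR adjusted p = 0.262). In all, 4 receptor genes did not overlap, beside 16.7% of tested genes.

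The formoterol calls were less firm than the fatty acid ones. AHR was lost without control replicate 1, 3 or 4 or formoterol replicate 1 or 4. RXRA was lost without control replicate 4 or formoterol replicate 1, 2 or 4. Scaled by total counts only, a setting that shifted the median of all genes by −0.133, the AHR value was 0.13 (edgeR adjusted p = 0.329).

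The interaction of the 2 agents was called for 1 receptor gene, AHR. With both agents AHR had 124, 161, 150 and 148 CPM, against 175, 190, 173 and 171 CPM with fatty acids alone, 154, 151, 138 and 167 CPM with formoterol alone and 125, 136, 126 and 121 CPM in control. The combined group overlapped both formoterol and control, and lay below every fatty acid library. Adding formoterol to fatty acids changed AHR by −0.28 ± 0.07 (edgeR adjusted p = 0.0383), the 1 receptor gene called in a comparison that called 2.80% of all tested genes. AHR was also the 1 receptor gene without overlap there, beside 9.34% of tested genes. The interaction, which is the formoterol effect with fatty acids minus the formoterol effect without them, was −0.55 ± 0.10 (edgeR adjusted p = 0.00487). Of all tested genes 5.50% had a called interaction. The AHR call held whichever library was left out, at −0.60 to −0.48, but not with total counts only (−0.39, edgeR adjusted p = 0.0508), a setting that shifted the median of all genes by 0.156 and in which RXRA was called instead (0.31, edgeR adjusted p = 0.025). Without combined replicate 2 the pairwise fall was also the 1 receptor call, beside 3.19% of all genes. That fall was less firm: it was lost on leaving out any of 10 of the 16 libraries, namely control replicate 1, formoterol replicates 1 and 2, fatty acid replicates 1 to 4 and combined replicates 1, 3 and 4. It was also lost with total counts only (−0.26, edgeR adjusted p = 0.134). With control as baseline the combined group differed by 0.20 ± 0.07, which was not called (edgeR adjusted p = 0.0808) but was without combined replicate 1 (0.27, edgeR adjusted p = 0.0147).

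Fatty acids plus formoterol against formoterol called 3 receptor genes, all of them lower, beside 18.4% of all tested genes, 8.97% in that direction. PPARD had 47.2, 35.9, 41.5 and 40.1 CPM with both agents, against 47.4, 50.4, 53.5 and 47.9 CPM with formoterol alone, a change of −0.27 ± 0.08 (edgeR adjusted p = 0.0223). PPARG (ENSG00000132170, chr3:12287368-12434356, plus strand), the fat cell PPAR that is low in normal liver, had 9.08, 7.87, 10.5 and 8.10 CPM with both agents, against 9.48, 15.0, 10.2 and 13.9 CPM with formoterol alone. These groups overlapped, and the change was −0.45 ± 0.15 (edgeR adjusted p = 0.0426). NR1I3 (ENSG00000143257, chr1:161229666-161238302, minus strand), the phenobarbital-responsive receptor CAR, had 2.36, 1.01, 2.06 and 2.42 CPM with both agents, against 5.31, 4.28, 3.12 and 3.40 CPM with formoterol alone. Every library with both agents lay below every formoterol library, and the change was −1.04 ± 0.27, the largest of any called receptor gene (edgeR adjusted p = 0.0106). PPARD and NR1I3 were the 2 receptor genes without overlap, beside 21.1% of tested genes.

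Replicate 2 of the combined group was the lowest of its group for PPARD, PPARG and NR1I3. Without it NR1I3 was still called (−0.82 ± 0.25, edgeR adjusted p = 0.0292), whereas PPARD and PPARG were not (edgeR adjusted p = 0.0799 and 0.0981) and RXRA was, higher with both agents (0.21 ± 0.06, edgeR adjusted p = 0.0148). Without combined replicate 4, PPARD and PPARG were likewise not called (edgeR adjusted p = 0.053 and 0.101). PPARD was also lost without formoterol replicate 3, and PPARG without control replicate 1 or 4, formoterol replicate 2 or 4, fatty acid replicate 3 or combined replicate 1. With total counts only, which shifted the median of all genes by 0.135, neither was called (−0.15 for PPARD and −0.32 for PPARG, edgeR adjusted p = 0.221 and 0.134), and RXRA was (0.29, edgeR adjusted p = 0.00129), as it also was with a filter of at least 1 CPM in 4 libraries (0.16, edgeR adjusted p = 0.048). NR1I3 rests on 38 to 202 counts per library and shares 1079 bases with TOMM40L on the opposite strand, which had 5.53 times as many counts. TOMM40L differed by −0.08 in the same comparison (edgeR adjusted p = 0.662).

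With both agents against control, 2 receptor genes were called, PPARD at −0.32 ± 0.08 (edgeR adjusted p = 0.0114) and PPARG at −0.59 ± 0.15 (edgeR adjusted p = 0.0115), beside 14.3% of all tested genes. PPARG had 7.87 to 10.5 CPM with both agents, against 13.5, 12.3, 14.2 and 13.4 CPM in control, and did not overlap. NR1I3 did not overlap either (1.01 to 2.42 CPM with both agents, against 2.61 to 4.52 CPM in control), but was not called (−0.75 ± 0.27, edgeR adjusted p = 0.0763). It was called by DESeq2 (−0.75, adjusted p = 0.0414) and by edgeR with no filter on low counts (−0.74, edgeR adjusted p = 0.0446). These 2 and PPARD made 3 without overlap, beside 16.3% of tested genes. The PPARG call held whichever library was left out, and PPARD was lost without control replicate 4 (edgeR adjusted p = 0.0543). The comparisons above share control or single-agent libraries, so their values are not independent of each other.

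PPARA, NR1H2 and RXRB were called in 0 of the 6 comparisons by edgeR and by DESeq2, and 1 value, the PPARA interaction, had an unadjusted edgeR p under 0.05. PPARA (ENSG00000186951, chr22:46150521-46243756, plus strand), the main hepatic PPAR, had 115, 77.3, 112 and 105 CPM with fatty acids plus formoterol, 119, 103, 125 and 117 CPM with fatty acids, 126, 117, 128 and 103 CPM with formoterol and 108, 114, 99.4 and 97.5 CPM in control. The groups overlapped throughout, and its 6 estimates ran from −0.36 ± 0.14 for the interaction (edgeR adjusted p = 0.151) to 0.18 ± 0.10 for formoterol against control (edgeR adjusted p = 0.294). With no filter on low counts PPARA was called for the interaction (−0.37, edgeR adjusted p = 0.0184) and for both agents against formoterol (−0.22, edgeR adjusted p = 0.04). NR1H2 (ENSG00000131408, chr19:50329653-50382982, plus strand), the widely expressed LXR, ranged from 47.8 to 58.3 CPM over all 16 libraries. RXRB (ENSG00000204231, chr6:33193588-33200688, minus strand), a partner receptor of many tissues, ranged from 43.4 to 57.5 CPM. Estimates for NR1H2 stayed within −0.03 to 0.04 and those for RXRB within −0.09 to 0.15, with SEs of 0.07 to 0.11. RXRB shares 244 bases with SLC39A7 on the opposite strand, which has 3.97 times its counts and was called in none of the comparisons.

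**Figure D3:**
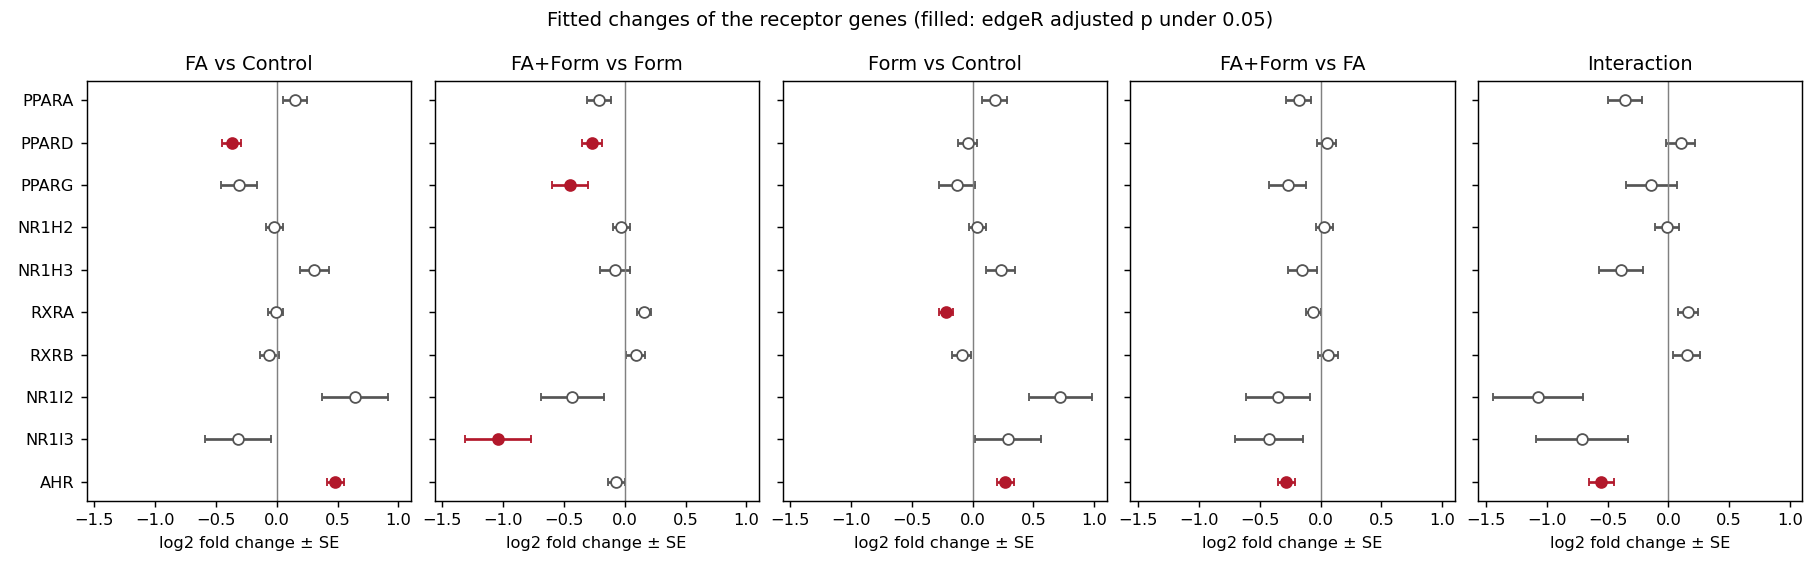
Log2 fold change ± SE of each receptor gene in 4 pairwise comparisons and the interaction, filled where the edgeR adjusted p is under 0.05. AHR is at 0.48 for fatty acids against control, −0.28 for both agents against fatty acids and −0.55 for the interaction, and NR1I3 is at −1.04 for both agents against formoterol.

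PPAR targets mostly rose with fatty acids. Of 24 tested PPAR targets, 21 rose and 0 fell with fatty acids against control (0 fell also at an unadjusted edgeR p under 0.05 and by DESeq2), with a median of 0.80 beside 0.01 over all tested genes. ANGPTL4, a secreted inhibitor of lipoprotein lipase, changed by 2.76 ± 0.14 (edgeR adjusted p = 1.14e-11), at 38.5 ± 2.37 CPM with fatty acids and 5.67 ± 0.967 CPM in control (SD, n = 4 each). CYP4A11, which hydroxylates the end of fatty acid chains, changed by 2.31 ± 0.39 (edgeR adjusted p = 0.000248) at 2.92 ± 0.563 CPM with fatty acids and 0.587 ± 0.122 CPM in control (SD, n = 4 each). The near-identical CYP4A22 can share its reads. No PPAR gene was called higher in this comparison, and PPARD was called lower.

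Formoterol alone split the PPAR targets. Against control 8 rose and 4 fell, with a median of 0.17 (5 rose without control replicate 1 or 3 or formoterol replicate 4). ANGPTL4 rose by 0.77 ± 0.14 (edgeR adjusted p = 0.00163). TXNIP, an inhibitor of glucose uptake, and PLIN2, the lipid droplet coat protein, fell by 0.76 ± 0.07 (edgeR adjusted p = 7.94e-07) and 0.67 ± 0.06 (edgeR adjusted p = 1.96e-07). Added to fatty acids, formoterol lowered 1 PPAR target, TXNIP (−0.71 ± 0.07, edgeR adjusted p = 1.28e-06), and called 0 higher (3 at an unadjusted edgeR p under 0.05, 0 by DESeq2). The count lowered was 4 by DESeq2, 6 with no filter on low counts, 2 with total counts only or with at least 1 CPM in 4 libraries, 3 without combined replicate 3 and 2 without control replicate 2 or 3, formoterol replicate 2 or combined replicate 4.

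The interaction called 8 PPAR targets, 7 of them negative (3 negative without control replicate 3, 11 with no filter on low counts). CPT1A, which admits long-chain fatty acids to mitochondria, averaged 252 ± 19.2 CPM with both agents, 237 ± 8.61 CPM with fatty acids, 142 ± 5.49 CPM with formoterol and 134 ± 7.36 CPM in control (SD, n = 4 each). The CPT1A interaction had an SE of 0.09 and was not called (edgeR adjusted p = 0.991).

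LXR targets moved both ways with fatty acids and more of them rose than fell with formoterol. Of 16 tested, 3 rose and 5 fell with fatty acids against control, the largest rise being that of APOE (0.82 ± 0.25, edgeR adjusted p = 0.0255), a lipoprotein component. Without combined replicate 2 the counts were 8 and 5, and APOC1 had the larger rise (0.91 ± 0.21, edgeR adjusted p = 0.00213). The count of falls was 3 without control replicate 2 or fatty acid replicate 2. The largest falls were MYLIP (−0.72 ± 0.10, edgeR adjusted p = 1.87e-05), which marks the LDL receptor for degradation, and SREBF1 (−0.48 ± 0.15, edgeR adjusted p = 0.0302), the master regulator of fatty acid synthesis. With formoterol against control 9 rose and 2 fell (4 rose without control replicate 3, and 4 fell with total counts only), among them APOC1 (1.27 ± 0.37, edgeR adjusted p = 0.03) and the desaturase SCD (1.07 ± 0.24, edgeR adjusted p = 0.00628). The cholesterol exporter ABCA1 rose by 0.51 ± 0.10 with formoterol (edgeR adjusted p = 0.00178). The 2 falls were MLXIPL (−0.57 ± 0.12, edgeR adjusted p = 0.00538), the carbohydrate-responsive factor, and the lipase LPL (−0.24 ± 0.07, edgeR adjusted p = 0.0224). The formoterol rise of SREBF1 was 0.53 ± 0.15 (edgeR adjusted p = 0.0257). SREBF1 averaged 25.4 ± 7.51 CPM with both agents, 26.1 ± 2.73 CPM with fatty acids, 52.7 ± 4.33 CPM with formoterol and 36.5 ± 3.87 CPM in control (SD, n = 4 each), and with both agents it was 1.06 ± 0.15 log2 units lower than with formoterol alone (edgeR adjusted p = 5.17e-05). These calls were not equally firm: APOC1 was lost without any 1 of control replicates 1 to 4 or formoterol replicates 1, 3 and 4, LPL with formoterol without control replicate 1 or 2 or formoterol replicate 3 or 4, and APOE with fatty acids without control replicate 1 or 3 or fatty acid replicate 1, 3 or 4. APOE was also lost with DESeq2 (0.81, adjusted p = 0.0536) and the formoterol rise of SREBF1 with total counts only (0.40, edgeR adjusted p = 0.0529). The SREBF1 fall with fatty acids was lost without control replicate 2 or 4 or fatty acid replicate 1 or 2, and its formoterol rise without control replicate 1 or 3 or formoterol replicate 1, 2 or 4. Both agents against fatty acids lowered 2 LXR targets, LPL (−0.43 ± 0.07, edgeR adjusted p = 0.000545) and the nuclear receptor RORA (−0.46 ± 0.11, edgeR adjusted p = 0.0192), the second lost without fatty acid replicate 1 or 3 or combined replicate 1, and 4 with no filter on low counts. LPCAT3, counted among the formoterol rises, overlaps C1S on the opposite strand, which has 87.5 times its counts.

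**Figure D4:**
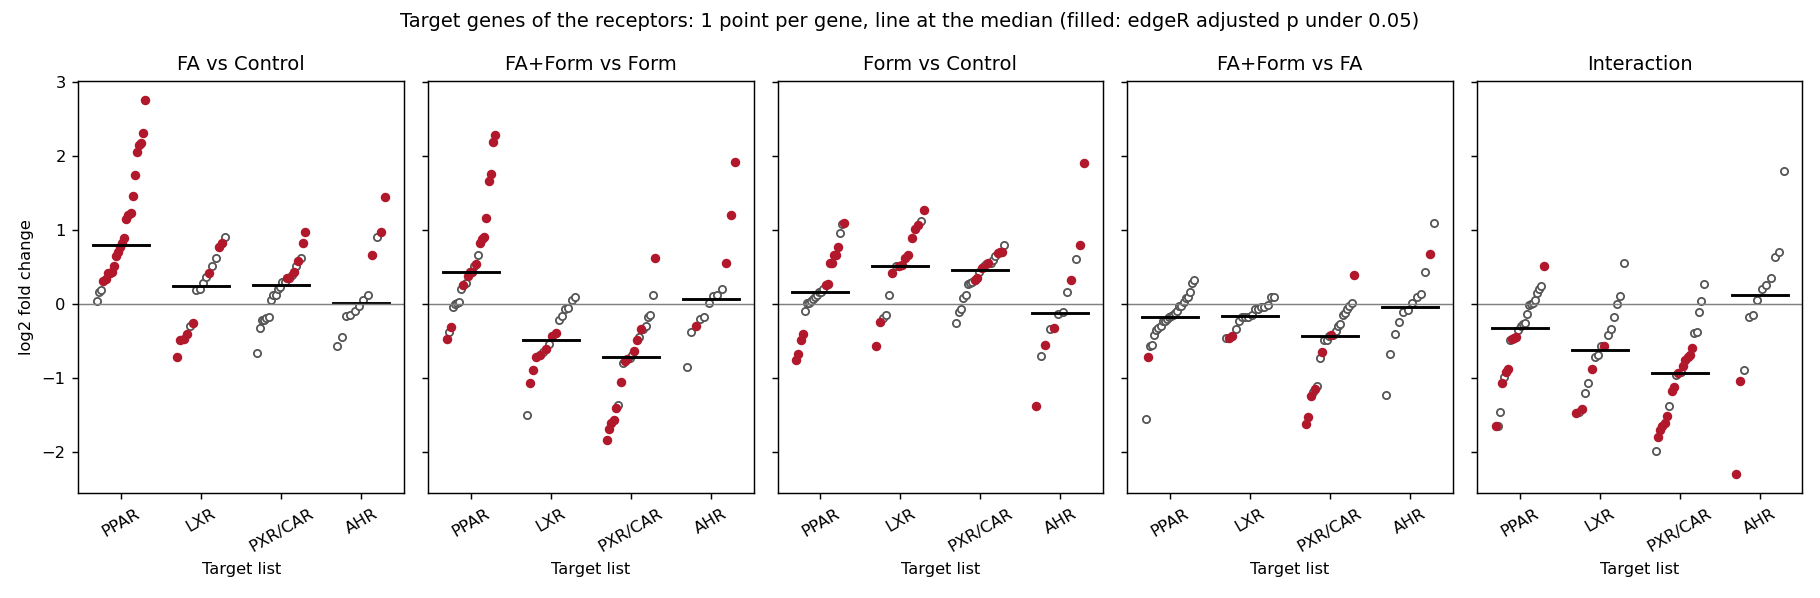
Log2 fold change of each tested target gene of the PPARs (24), LXRs (16), PXR and CAR (22) and AHR (12), filled where the edgeR adjusted p is under 0.05, with a line at the median. PPAR targets lie mostly above 0 with fatty acids against control (median 0.80), and PXR and CAR targets mostly below 0 for the interaction (median −0.92).

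Targets of PXR and CAR that changed with either agent alone against control were mostly higher. Most that changed between both agents and a single agent were lower with both. Against control, both agents raised 3 and lowered 4 (7 and 4 without combined replicate 2). Of 22 tested, 6 rose and 0 fell with fatty acids against control (2 fell at an unadjusted edgeR p under 0.05 and 2 by DESeq2), led by the drug oxidases CYP2C8 (0.97 ± 0.26, edgeR adjusted p = 0.0134) and CYP3A5 (0.83 ± 0.11, edgeR adjusted p = 2.14e-05). Formoterol against control raised 7 and lowered 0 (1 at an unadjusted edgeR p under 0.05 and 1 by DESeq2), led by the drug efflux pump ABCB1 (0.71 ± 0.12, edgeR adjusted p = 0.000527) and the glutathione transferase GSTA1 (0.71 ± 0.17, edgeR adjusted p = 0.00863). Both agents against fatty acids raised 1, the P450 electron donor POR (0.39 ± 0.08, edgeR adjusted p = 0.00578), and lowered 6, led by the nicotine oxidase CYP2A6 (−1.62 ± 0.28, edgeR adjusted p = 0.00165) and CYP3A4. The interaction was negative for 13 and positive for 0 (1 at an unadjusted edgeR p under 0.05, 0 by DESeq2), with a median of −0.92 beside 0.01 over all tested genes. Such a pattern was not particular to these targets. Of the 12 hepatocyte markers, CYP3A4 among them, 9 had a negative interaction, with a median of −1.37. Without combined replicate 2 it was 11 of them, and the medians were −1.08 for the markers and −0.70 for the PXR and CAR targets. CYP2C8 was lost with fatty acids without control replicate 3. Without that library 3 rose with fatty acids and 6 had a negative interaction. The count raised by formoterol was 4 without control replicate 1, 3 or 4 or formoterol replicate 1. The count lowered by both agents against fatty acids was 3 without control replicate 1 or fatty acid replicate 1, 3 or 4. CYP3A, CYP2C, GSTA and UGT1A genes have close paralogs or shared exons, so their counts are uncertain where reads fit several copies.

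CYP3A4, the main drug-metabolising P450 of adult liver and a target of PXR, had 895, 217, 815 and 722 CPM with both agents, 1851, 1749, 2080 and 1985 CPM with fatty acids, 2508, 2135, 2521 and 2326 CPM with formoterol and 2303, 2668, 1541 and 2207 CPM in control. Every library with both agents lay below every other library, and the interaction was −1.65 ± 0.36 (edgeR adjusted p = 0.0102). CYP2B6, the classical CAR target, had 64.9, 9.57, 57.7 and 53.2 CPM with both agents, 103, 85.8, 131 and 118 CPM with fatty acids, 153, 113, 149 and 135 CPM with formoterol and 91.3, 112, 66.0 and 105 CPM in control. Its interaction was −1.80 ± 0.45 (edgeR adjusted p = 0.0226), lost without control replicate 3 (edgeR adjusted p = 0.059). Without combined replicate 2 both were still called, CYP3A4 at −1.36 ± 0.15 (edgeR adjusted p = 3.19e-06) and CYP2B6 at −1.46 ± 0.19 (edgeR adjusted p = 2.12e-05).

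PXR itself, NR1I2, had 13.5, 3.90, 16.5 and 16.4 CPM with both agents, beside the single-agent values above. Its interaction was −1.07 ± 0.37 (edgeR adjusted p = 0.096), and −0.77 ± 0.19 without combined replicate 2 (edgeR adjusted p = 0.014). With all libraries and no filter on low counts it was called too (−1.08, edgeR adjusted p = 1.77e-07). The fit without that library called 2 receptor genes for the interaction, the other being AHR at −0.60 (edgeR adjusted p = 0.000271), beside 5.54% of all genes. In the other 3 combined libraries NR1I2 had 13.5 to 16.5 CPM, against 8.43 to 13.5 CPM in control. CYP3A4 had 722 to 895 CPM in those libraries, against 1541 to 2668 CPM in control. With combined replicate 2 included, NR1I2 differed from control by 0.29 ± 0.27, which was not called (edgeR adjusted p = 0.556). Without that replicate NR1I2 was higher with both agents than in control (0.59 ± 0.14, edgeR adjusted p = 0.00383), against −1.43 ± 0.11 for CYP3A4 (edgeR adjusted p = 6.68e-10). Counts of PXR and CAR targets without that replicate were 10 up and 2 down for fatty acids against control, 14 up and 1 down for formoterol against control, and 14 down for the interaction.

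**Figure D5:**
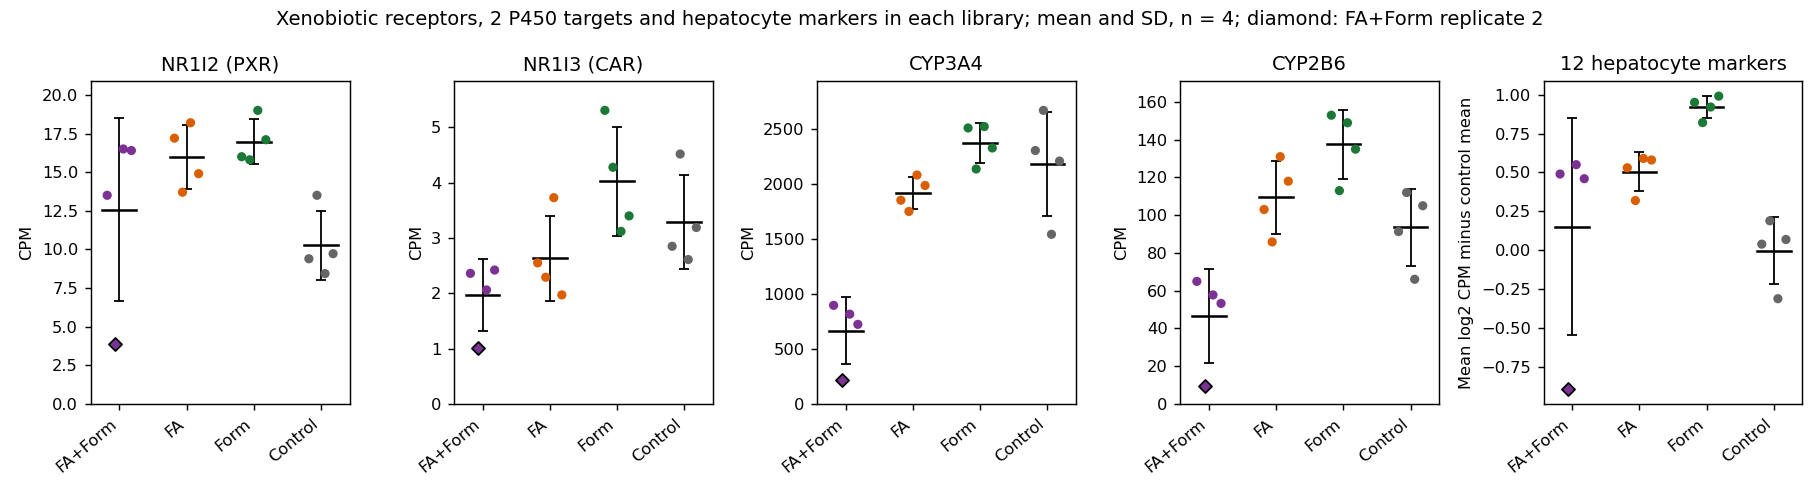
CPM of PXR (NR1I2), CAR (NR1I3) and their targets CYP3A4 and CYP2B6 in each library, with mean and SD of 4 libraries, and the mean log2 CPM of 12 hepatocyte markers minus the control mean. CYP3A4 lies at 217 to 895 CPM with both agents and at 1541 CPM or more elsewhere, and the marker score of the diamond is −0.89.

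In formoterol-treated cells, adding fatty acids raised 13 PPAR targets and lowered 2, with a median of 0.44 beside 0.01 over all tested genes. CPT1A rose by 0.83 ± 0.06 there (edgeR adjusted p = 1.06e-08). LXR targets fell in 7 cases and rose in 0 (0 at an unadjusted edgeR p under 0.05 and 0 by DESeq2), with a median of −0.49. PXR and CAR targets fell in 11 cases and rose in 1, with a median of −0.71, and without combined replicate 2 the counts were also 11 and 1. CYP3A4 was lower by 1.84 ± 0.26 log2 units (edgeR adjusted p = 4.48e-05) and CYP2B6 by 1.57 ± 0.32 (edgeR adjusted p = 0.00163). The CAR gene NR1I3 also fell in this comparison. So did 5 of the 12 hepatocyte markers, while 1 rose, with a median of −0.34 (6 and 1, median −0.16, without combined replicate 2). A link between these falls was not tested. Both agents against control raised 15 PPAR targets and lowered 0 (0 at an unadjusted edgeR p under 0.05 and 0 by DESeq2). The same comparison raised 3 and lowered 5 LXR targets and raised 3 and lowered 4 PXR and CAR targets (8 and 5, and 7 and 4, without combined replicate 2). The count of LXR rises was 1 without control replicate 3 or 4 or combined replicate 3 or 4 and 5 with no filter on low counts, and that of PXR and CAR falls 2 without control replicate 1, 2 or 4 or combined replicate 4.

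Markers of cell types also moved between groups, and their part in the receptor results was not tested. In bulk RNA, fewer cells of a type and less RNA per cell cannot be told apart. The summed CPM of 12 hepatocyte markers, CYP3A4 among them, was 27824 to 67159 with both agents, 56877 to 64531 with fatty acids, 67657 to 72792 with formoterol and 29601 to 43410 in control, so that it was above all control libraries in every library with fatty acids or formoterol alone, as NR1I2 was. ALB, the main plasma protein of hepatocytes, had 9815 to 26656 CPM with both agents, 27549 to 31255 CPM with fatty acids, 30574 to 31929 CPM with formoterol and 11601 to 19878 CPM in control. Of 12 cholangiocyte markers 8 were tested, and EPCAM was at 0 counts. Their sum was 267 to 342, 324 to 378, 192 to 204 and 169 to 174 CPM in the same order of groups. Its highest value was with fatty acids, as for AHR, but the fatty acid and combined ranges overlapped. The median log2 change of the tested cholangiocyte markers against control was 0.81 with both agents and 0.62 with fatty acids. For 10 stellate and fibroblast markers, with 8 tested and COL1A2 at 0, the sum was 624 to 785, 779 to 909, 491 to 530 and 661 to 823 CPM. For 12 leukocyte and endothelial markers, with 4 tested and CDH5 at 0, it was 73.1 to 119, 179 to 189, 69.9 to 79.3 and 139 to 158 CPM, and the leukocyte gene PTPRC stayed at or under 0.098 CPM. The stellate and fibroblast sum and the leukocyte and endothelial sum also had their highest values with fatty acids. The 10 proliferation genes, all tested, summed to 517 to 812, 343 to 452, 272 to 298 and 213 to 248 CPM.

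AHR targets moved both ways. Of 12 tested, 3 rose and 0 fell with fatty acids against control (2 fell at an unadjusted edgeR p under 0.05, 0 by DESeq2), led by ALDH3A1 (0.98 ± 0.08, edgeR adjusted p = 9.29e-09), an aldehyde dehydrogenase, and UGT1A6 (0.66 ± 0.18, edgeR adjusted p = 0.0154), a glucuronosyltransferase whose exons are shared with its neighbours. The median over the list was 0.02, and UGT1A6 was lost without control replicate 3, when 1 target rose. CYP1A1, the most AHR-dependent P450, averaged 3.38 ± 1.02 CPM with both agents, 5.38 ± 1.46 CPM with fatty acids, 3.09 ± 0.692 CPM with formoterol and 8.01 ± 1.71 CPM in control (SD, n = 4 each). It was highest in control, where mean AHR was lowest, and its fall was called for formoterol against control (−1.37 ± 0.24, edgeR adjusted p = 0.000873) but not for fatty acids against control (−0.57 ± 0.23, edgeR adjusted p = 0.0973). CYP1A2 was at 0.803 ± 0.599 CPM with both agents, 1.88 ± 0.34 CPM with fatty acids, 0.804 ± 0.348 CPM with formoterol and 1.00 ± 0.299 CPM in control (SD, n = 4 each) and was called in none of the comparisons.

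With formoterol against control 3 AHR targets rose and 3 fell (1 fell without control replicate 3). NQO1, a quinone reductase, rose by 1.90 ± 0.46 (edgeR adjusted p = 0.0112) at only 1.20 ± 0.422 CPM with formoterol and 0.320 ± 0.191 CPM in control (SD, n = 4 each). AHRR, the AHR repressor, fell by 0.55 ± 0.14 with formoterol (edgeR adjusted p = 0.0152) and was higher by the same 0.55 ± 0.14 with both agents against formoterol (edgeR adjusted p = 0.0082). The formoterol call of AHRR was lost without control replicate 3, and AHRR overlaps PDCD6 on the same strand. CYP1B1, an extrahepatic CYP1 enzyme, rose by 0.68 ± 0.08 when formoterol was added to fatty acids (edgeR adjusted p = 3.71e-05), the comparison in which AHR fell. ARNT, the DNA-binding partner of AHR, had group means of 69.2 to 71.9 CPM and was called in none of the comparisons.

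Among 21 tested partners and coregulators 5 rose and 3 fell with fatty acids against control, with a median of 0.00 (1 rise and 3 falls with total counts only, 2 rises and 1 fall with no filter on low counts), the rises including the AHR chaperone part PTGES3 (0.32 ± 0.06, edgeR adjusted p = 0.00115). ARNT2 (0.33 ± 0.11, edgeR adjusted p = 0.0471), a relative of ARNT, also rose, but was lost on leaving out any 1 of 13 libraries and in 4 of the other settings. Leaving out any 1 control or fatty acid library gave 1 to 3 rises, and leaving out control replicate 3 or 4 or fatty acid replicate 1 or 4 gave 1 fall. With formoterol against control 1 partner rose, PTGES3 (0.22 ± 0.06, edgeR adjusted p = 0.0308), and 1 fell (0 without control replicate 3, 2 without formoterol replicate 1). Scaled by total counts only 0 rose and 7 fell, and PTGES3 was at 0.09 (edgeR adjusted p = 0.45). PTGES3 was also lost without control replicate 3 or 4 or formoterol replicate 1 or 4.

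Of 15 tested genes that supply or carry ligands, 4 rose and 1 fell with fatty acids against control (1 rose without control replicate 3, 2 rose without fatty acid replicate 4, and 2 fell without control replicate 1). The fatty acid carriers FABP4 and FABP1 rose by 1.71 ± 0.20 (edgeR adjusted p = 2.89e-06) and 1.20 ± 0.35 (edgeR adjusted p = 0.0203), and CYP46A1, which makes 24-hydroxycholesterol, an LXR ligand, fell by 0.74 ± 0.19 (edgeR adjusted p = 0.00904). Formoterol against control raised 3 and lowered 1. Without combined replicate 2 it raised 5, FABP1 among them (0.96 ± 0.16, edgeR adjusted p = 0.000105), and with no filter on low counts it raised 5 and lowered 0. With total counts only it lowered 2. RBP4, the retinol carrier, rose by 1.00 ± 0.19 (edgeR adjusted p = 0.00174) and ALDH1A1, which makes retinoic acid, by 0.55 ± 0.10 (edgeR adjusted p = 0.000954), while FABP4 fell by 0.72 ± 0.21 (edgeR adjusted p = 0.031). Added to fatty acids, formoterol lowered 2 of these genes, FABP4 (−0.84 ± 0.19, edgeR adjusted p = 0.0154) and ALDH1A1 (−0.43 ± 0.10, edgeR adjusted p = 0.0149). FABP1 was lost without control replicate 2 or 3 or fatty acid replicate 4, the formoterol fall of FABP4 without control replicate 2 or 3 or formoterol replicate 1 or 3 or with no filter on low counts (−0.71, edgeR adjusted p = 0.0845), and the last 2 changes without fatty acid replicate 3 or, for FABP4, 4.

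The protein-coding genes whose log2 CPM followed each receptor gene most closely over the 16 libraries were found among 12267 genes by Pearson r, as a description; the libraries share their groups and their depth. NR1I2 was closest to OTC (r = 0.972), a urea cycle enzyme, and TDO2 (r = 0.969), the hepatic tryptophan dioxygenase, but without combined replicate 2 these ranked 17 and 19. PPARD was closest to TIMM44 (r = 0.946), of the mitochondrial protein import motor, and OGDH (r = 0.918), of the citric acid cycle, which stayed at ranks 1 and 2 without that library. AHR was closest to FCHO2 (r = 0.92) and CMPK1 (r = 0.918), and RXRA to SNX33 (r = 0.885) and the alpha-adrenergic receptor ADRA1A (r = 0.875). PPARA was closest to KIF13B (r = 0.904) and IYD (r = 0.898), the second of which ranked 28 without that library, and PPARG to PSAP (r = 0.86) and PXK (r = 0.859). NR1H3 was closest to SLC43A1 (r = 0.89) and TMEM220 (r = 0.871), and NR1I3 to SHLD2 (r = 0.905) and UGT2B10 (r = 0.892). The even genes had the loosest matches, NR1H2 with ZBTB46 (r = 0.785) and TMEM11 (r = 0.768), and RXRB with TMEM259 (r = 0.78) and TMEM60 (r = 0.771).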

How the data were processed

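RNA-seq gene counts of 16 libraries in 4 groups of 4 were used. The deposited table holds whole-number counts per gene that the authors made from poly-A RNA libraries, with gene lengths and coordinates per the file headers. The submitters' processing notes name mm39, a mouse build, with HISAT2 2.0.5 and DESeq2. All 58735 gene IDs nevertheless have the name, start, end and strand of human GENCODE release 29 (GRCh38), and 0 are mouse, so the counts were read as human. The counting program, its strand setting and its handling of reads that match several genes are not named in the labels or headers.

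Depth ranged from 32471299 to 65673126 counts. Genes were filtered with filterByExpr of edgeR 4.0.16 (R 4.3.3), which kept 18121 genes and 99.94% of counts, scaled by TMM and fitted by quasi-likelihood with 4 group means (12 residual and 8.93 prior degrees of freedom). The 5 pairwise comparisons and the interaction were tested, with Benjamini-Hochberg adjustment over all tested genes and a threshold of 0.05. The SE is the log2 fold change divided by the root of F. Log2 CPM used a prior count of 2, and TPM used the deposited gene length over all genes. Precision per gene is limited by counting error and by 4 libraries a group. In simulated counts the fit found 62.3% to 67.9% of 1.5-fold changes in the pairwise comparisons and 34% of them for the interaction. Real changes of that size or smaller can therefore go uncalled. Summaries were made in Python 3.11.15 (numpy 2.4.6, pandas 2.3.3), and plots with matplotlib 3.10.9.

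The receptor genes, target lists, marker lists and tests were chosen with earlier results of these data known. Named genes are the receptors, fixed genes (RXRG, ARNT, AHRR, CPT1A, ABCA1, SREBF1, CYP3A4, CYP2B6, CYP1A1, CYP1A2) and, from each list, up to 2 rises and 2 falls largest by log2 fold change among called genes whose higher group had 1 CPM or more, over 3 comparisons (each agent against control, and both agents against fatty acids). Some genes that this rule names are not reported here, though list counts and medians hold them. LPCAT3 and the overlapping partner genes were named after their values were seen. Alternatives were leaving out each library in turn, a block for the replicate number, DESeq2 1.42.0 as the test, its size factors, total counts only, no filter, and a filter of at least 1 CPM in 4 libraries. Promoter windows came from RefSeq (GRCh38.p14), which listed a start for all 10 receptor genes. Not every start was found in GENCODE. For both RXRA windows the bases after the start were in no GENCODE transcript. The same held for part of the windows of PPARA, PPARG, NR1H3 and RXRB. The AHR and PPARD windows shown passed this check. The motif counts include the windows that did not pass. Sequencing reads were not used here.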

Additional observations from a re-analysis of the deposited data

Results flagged for a closer look

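In 2 of 40 groups of 4 libraries 1 value lay far from the other 3, about what chance gives, since it marks about 1 group in 20. RXRA had 162 CPM in formoterol replicate 3, the highest of that group, where the other 3 libraries had 154 to 155 CPM. RXRA also had 191 CPM in control replicate 4, the highest of that group, where the others had 179 to 180 CPM. In both cases the gap was set against a very narrow spread of the other libraries. The call of RXRA with formoterol was lost without control replicate 4.

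The effect of formoterol on AHR differed between cells with and without fatty acids. The change was −0.28 ± 0.07 when formoterol was added to fatty acids and 0.27 ± 0.07 when it was given alone, and the test of the difference gave −0.55 ± 0.10 (edgeR adjusted p = 0.00487). Each of the 4 libraries with both agents lay below each fatty acid library, and each formoterol library lay above each control library.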

How the results depend on the processing

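The count of receptor genes called changed with single libraries and with the filter on low counts. Over the 16 fits that each left out 1 library it ran from 2 to 4 for fatty acids against control, 0 to 3 for formoterol against control, 0 to 1 for both agents against fatty acids, 1 to 3 for both against formoterol, 1 to 3 for both against control and 1 to 2 for the interaction. With total counts only it was 1 for formoterol against control and 0 for both agents against fatty acids, and with no filter on low counts it was 5 for both against formoterol and 3 for the interaction. The calls added with no filter were NR1I2 for fatty acids against control (0.64) and for formoterol against control (0.74), NR1I3 for both against control (−0.74), PPARA (−0.22) and NR1I2 (−0.44) for both against formoterol, and PPARA (−0.37) and NR1I2 (−1.08) for the interaction. Their estimates hardly moved: the NR1I2 interaction was −1.07 with the filter (edgeR adjusted p = 0.096) and −1.08 without it (edgeR adjusted p = 1.77e-07). Apart from the fit without combined replicate 2, the shares of all genes called under these settings are not given. The counts are therefore not a result about the receptors as a set. RXRA was lost with no filter for formoterol against control (−0.21, edgeR adjusted p = 0.0594). The cause was not tested. The other 32 counts under these settings stayed within 1.5 times.

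Same-numbered libraries did not deviate together (r from −0.113 to 0.0825 over 24 pairs, 0 of them over 0.1). That shows no large shared deviation by replicate number. It cannot show whether same-numbered samples were cultured or handled together, which the labels do not say. With the replicate block the counts were 2, 2, 1, 2, 2 and 1 in the order above, PPARG against formoterol being lost (−0.46, edgeR adjusted p = 0.0538).

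Signs of receptor values turned only among those not called. With total counts only these were PPARG (0.01) and NR1H2 (0.15) for the interaction, NR1H2 for formoterol against control (−0.10), and NR1H2 (0.11), NR1H3 (0.05) and AHR (0.07) for both agents against formoterol. With at least 1 CPM in 4 libraries they were NR1H2 (−0.0022) and RXRB (−0.01) for both agents against control and NR1H2 for the interaction (0.01). RXRB for both against control was −0.0004 with DESeq2 size factors and −0.00051 with DESeq2. Leaving out 1 library gave a range across 0 for PPARA (−0.09 to 0.08), NR1H2 (−0.04 to 0.05) and RXRB (−0.06 to 0.07) for both agents against control. For both against fatty acids it did for PPARD (−0.02 to 0.11) and NR1H2 (−0.01 to 0.07), and for both against formoterol for NR1H2 (−0.07 to 0.02), NR1H3 (−0.18 to 0.04) and AHR (−0.12 to 0.0019). It also did for PPARD (−0.08 to 0.01) and NR1H2 (−0.01 to 0.08) with formoterol against control, for NR1H2 (−0.06 to 0.01), RXRA (−0.04 to 0.02) and RXRB (−0.12 to 0.02) with fatty acids against control, and for NR1H2 for the interaction (−0.05 to 0.04). Results of other named genes that were called with all 16 libraries kept their direction under these alternatives; uncalled ones were not recomputed. Counts of target genes moved beyond 1.5 times most often with no filter: 6 in place of 3 LXR targets rose with fatty acids, 12 in place of 6 PXR and CAR targets rose with fatty acids, 14 in place of 7 rose with formoterol, and 13 in place of 6 fell when formoterol joined fatty acids. Depth limits the precision for NR1I3 and CYP1A2, which have few counts.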
